A study of Mus musculus with 2 samples.

Results

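The genes described are 10 genes of lipid handling around the nuclear receptors PPAR and LXR, measured in monocytes of the mouse spleen. They are the receptor genes Pparg, Ppard, Nr1h2 and Nr1h3, the LXR targets Abca1, Abcg1 and Mylip, and the PPAR targets Fabp4, Plin2 and Angptl4. They were found by the gene name that the array files give to each probe, and make up 10 of 24813 RefSeq-named genes on the array. The 17 probes of these genes were read on 2 arrays, 1 from sham-operated mice and 1 from mice with a 5/6 nephrectomy (5/6Nx), an operation that removes most of the kidney tissue. Both groups were of the outbred ICR stock, and their splenic monocytes were sorted 8 weeks after surgery with antibodies to CD11b and Ly6C. The labels name no transgene or drug in either group, and the age of the mice and the number pooled into each RNA sample are not given in the sources used here. With 1 array per group no difference has a replicate check, array and group cannot be told apart, and the number of arrays limits the precision.

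PPAR and LXR are nuclear receptors that sit on DNA together with the retinoid X receptor. PPAR gamma (Pparg) and PPAR delta (Ppard) respond to fatty acids and their oxidised products and turn on genes of fatty acid uptake, storage and burning. LXR alpha (Nr1h3) and LXR beta (Nr1h2) respond to oxysterols, the oxidised forms of cholesterol, and turn on genes that carry cholesterol out of the cell. In monocytes and macrophages both pathways are known for handling the lipid that comes with engulfed cells and lipoproteins, and for damping inflammatory genes.

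Of the 10 genes, 4 were higher by 2-fold or more after 5/6Nx, 4 were lower by 2-fold or more and 2 lay within 2-fold. The higher genes were Nr1h3, Fabp4, Abcg1 and Pparg, and the lower genes were Angptl4, Plin2, Mylip and Abca1. The background for these counts is the 15715 genes measured on both arrays, meaning well above background there, of which 12.3% were higher by 2-fold or more and 10.9% lower. All 10 members were measured in this sense, by 15 of their 17 probes. The median difference of the members was -0.26 in log2 units, against -0.12 for all measured genes, and this median lies between 2 separate sets of members rather than near any of the 8 that were apart. With scaling to the spike-in controls these medians were 0.11 and 0.26. All differences are 5/6Nx minus sham, of log2 intensity after scaling each array to its 75th percentile, so a difference of 1 is 2-fold. The error printed after an intensity or a difference is the one that the scanner software's error model gives to the spot, and it covers neither animals, sorting nor labelling.

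The software placed 63.0% of the sham array's 59305 non-control spots, and 67.0% of those of 5/6Nx, well above background. Over all measured genes 52.8% of those at least 2-fold apart were higher on the 5/6Nx array, a share that was 77.2% with spike-in scaling, where all differences lie 0.38 higher, and 40.8% with median scaling, where they lie 0.15 lower. All 9 monocyte markers were measured, with 3 higher and 1 lower after 5/6Nx, and their summed intensity was 589490 for sham and 890433 for 5/6Nx. Summed intensities here and below are those before scaling, where the 75th percentile was 442.1 for sham and 547.5 for 5/6Nx. Of 7 measured T cell markers 6 were higher after 5/6Nx, with summed intensities of 1271 and 33293, and Cd8a was detected after 5/6Nx only. Both measured NK cell markers were higher, with sums of 145.7 and 28061, and the other 4 were detected after 5/6Nx only. Platelet markers were lower, 3 of 4 measured, with sums of 180898 and 13646, and 2 more were detected after 5/6Nx only. In RNA from a sorted population, fewer cells of a type and less RNA per cell cannot be told apart. The part of other cell types in the differences given here was not tested.

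**Figure D1:**
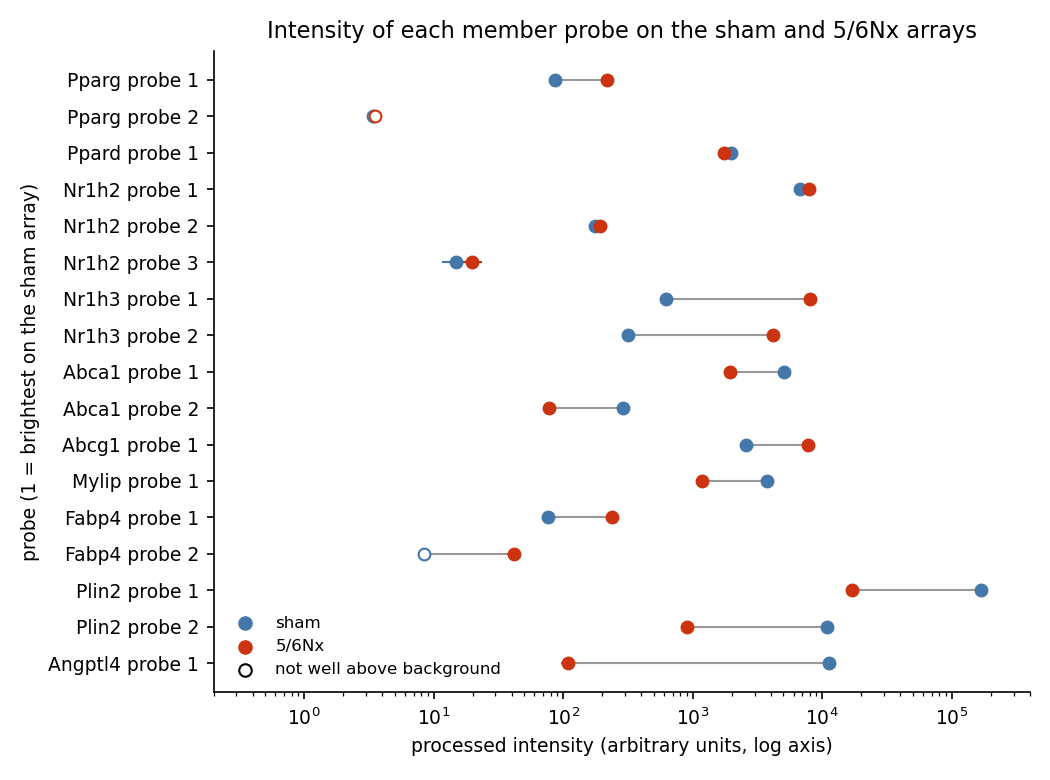
Processed intensity (log axis) of the 17 member probes on the sham array (blue) and the 5/6Nx array (red), with the software's spot error as a bar where the probe was well above background; open circles were not well above background. The widest gaps are those of Angptl4, both Plin2 probes and both Nr1h3 probes, whereas the points of Ppard and Nr1h2 lie close together.

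Among the 4 receptor genes, Nr1h3 stood far higher after 5/6Nx, Pparg lay just past 2-fold, and Ppard and Nr1h2 lay within 2-fold. None of the 4 was at least 2-fold lower.

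Nr1h3, which encodes LXR alpha, the LXR form found mainly in liver, fat and macrophages, read 622.6 ± 62.3 for sham and 8012 ± 801 for 5/6Nx. The probe lies on chromosome 2, 91024250 to 91024309 (mm9, minus strand). The difference was 3.38 ± 0.20 in log2 units, or 10.4-fold. A second probe (91024435 to 91024494) read 314.4 and 4148, a difference of 3.41 ± 0.20, so both probes placed the 5/6Nx array about equally far above sham. Of the 15715 measured genes, 318 had a larger difference upward.

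Nr1h2 encodes LXR beta, the form found in nearly all tissues. Its brightest probe (chromosome 7, 51805013 to 51805072, mm9, minus strand) read 6678 ± 668 for sham and 7963 ± 796 for 5/6Nx. The scaled difference was -0.05 ± 0.20, smaller than its error. Its other probes read 175.8 and 191.4, with a difference of -0.19 ± 0.21, and 14.9 and 19.9, with a difference of 0.11 ± 0.42. The 3 probes thus differed in sign and none was apart by more than its error. Nr1h3 and Nr1h2 therefore differed in how they stood between the arrays, by 3.43 in log2 units.

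Pparg encodes PPAR gamma, known as the master regulator of fat cells and a regulator of lipid uptake in macrophages. It was dim, with 86.5 ± 9.1 for sham and 219.1 ± 22.1 for 5/6Nx (chromosome 6, 115440213 to 115440272, mm9, plus strand). The difference of 1.03 ± 0.21, or 2.05-fold, lay at the 2-fold line within its error, and normexp background correction gave 0.63. The other Pparg probe (115413557 to 115413616) read 3.41 and 3.50 and was not well above background on either array, so it carries no difference.

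Ppard encodes PPAR delta, a widely expressed regulator of fatty acid burning. Its 1 probe (chromosome 17, 28438298 to 28438357, mm9, plus strand) read 1960 ± 196 for sham and 1750 ± 175 for 5/6Nx. The difference was -0.47 ± 0.20, or 1.39-fold, and 28.6% of measured genes had a lower value. Of the PPAR pair, Pparg was thus the higher in this difference.

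Among the LXR targets Abca1 and Mylip were lower on the 5/6Nx array and Abcg1 was higher, so the 3 target genes did not share a direction with each other. Nr1h3 itself was higher on the same array.

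Abca1 encodes the transporter that loads cholesterol and phospholipid onto lipid-poor apolipoprotein A1, the first step in making HDL. Its brighter probe (chromosome 4, 53043944 to 53044003, mm9, minus strand) read 5111 ± 511 for sham and 1951 ± 195 for 5/6Nx. The difference was -1.70 ± 0.20, a 3.24-fold lower value. A second probe lies nearer the 5' end and read 288.7 ± 29.0 and 78.0 ± 8.5, a difference of -2.20 ± 0.21, or -1.59 with normexp. This second probe spans 741 bases of the genome with its 60 bases, so it crosses an intron and reads spliced transcript. It is shown because it gave the same direction from another part of the Abca1 transcript:

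Abca1 splice-crossing probe: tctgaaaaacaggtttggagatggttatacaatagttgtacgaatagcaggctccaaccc

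Abca1 is known as a direct LXR target with a response element close to its start site. LXR and PPAR dimers are known to favour direct repeats of the hexamer AGGTCA, spaced by 4 bases for LXR (DR4) and by 1 base for PPAR (DR1). Both strands of the RefSeq promoter windows, from 250 bases before to 50 after each annotated start on GRCm38.p6, were searched for these repeats with at most 3 mismatches in the 12 hexamer bases. Of the 10 genes 7 had windows there, 10 in all. The Abca1 window (chr4:53159846-53160145, minus strand) held 1 DR4 match, at positions -67 to -52 from the start, on the strand opposite to the gene and with 3 mismatches. Matches of this quality are common, since 21.9% of all 32851 windows held at least 1. The window is printed in the gene's direction, with the DR4 match in capitals, because Abca1 is a textbook LXR target that was lower while Nr1h3 was higher:

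Abca1 promoter: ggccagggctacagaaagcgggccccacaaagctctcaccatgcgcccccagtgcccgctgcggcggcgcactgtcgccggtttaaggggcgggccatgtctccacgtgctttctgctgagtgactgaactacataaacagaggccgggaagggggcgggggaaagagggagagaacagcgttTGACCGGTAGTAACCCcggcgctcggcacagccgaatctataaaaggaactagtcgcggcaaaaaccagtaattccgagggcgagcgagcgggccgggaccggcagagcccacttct

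The capitals mark letters that resemble the repeat and are a description, not a measured binding site. The windows of Nr1h3 (2), Nr1h2, Ppard and Mylip held neither repeat at this level. Of the 3 Pparg windows, 1 (chr6:115362099-115362398, plus strand) held a DR4 match with 3 mismatches, at positions -9 to 6, and it contains an exact AGGTCA. An exact AGGTCA on either strand was present in 2 Pparg windows and in the Plin2 window, against 16.3% of all windows.

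Abcg1 encodes the transporter that passes cholesterol on to mature HDL particles. Its 1 probe (chromosome 17, 31252580 to 31252639, mm9, plus strand) read 2558 ± 256 for sham and 7741 ± 774 for 5/6Nx. The difference was 1.29 ± 0.20, a 2.44-fold higher value, and it ran from 1.14 to 1.67 over the alternatives tried. Abcg1 and Abca1 are usually named together as cholesterol exporters, and here they were 2.99 log2 units apart in their difference.

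Mylip encodes IDOL, a ubiquitin ligase that marks lipoprotein receptors for breakdown and so limits cholesterol uptake. Its 1 probe (chromosome 13, 45506979 to 45507038, mm9, plus strand) read 3719 ± 372 for sham and 1185 ± 119 for 5/6Nx. The difference was -1.96 ± 0.20, a 3.89-fold lower value, and 445 measured genes had a lower one. Of the receptors that IDOL is known to mark, Vldlr, the VLDL receptor, read 110.2 and 416.9, a difference of 1.61, or 1.23 with normexp. Lrp8, the apolipoprotein E receptor 2, read 284.1 and 479.5 on its brightest probe, a difference of 0.45, but its 4 measured probes ran from -2.11 to 0.45.

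Among the PPAR targets Angptl4 and Plin2 were far lower on the 5/6Nx array, and Fabp4 was higher from a dim level. Angptl4 had the largest difference of the 10 genes.

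Angptl4 encodes a secreted inhibitor of lipoprotein lipase that PPARs are known to induce when fatty acids are abundant. Its 1 probe (chromosome 17, 33911880 to 33911939, mm9, minus strand) read 11354 ± 1135 for sham and 108.0 ± 11.2 for 5/6Nx. The difference was -7.02 ± 0.21, a 130-fold lower value, and it was -6.42 with normexp, which holds low signals closer together. Only 3 of 15715 measured genes had a lower difference. Lpl, the lipase that ANGPTL4 inhibits, read 1260 and 3681, a difference of 1.24, and its 6 measured probes ran from 0.62 to 1.25. Of the lipase's other partners, the lipase maturation factor Lmf1 differed by -0.91 and the endothelial anchor Gpihbp1 by -0.02. The related gene Angptl8 differed by -0.25.

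Plin2 encodes perilipin 2, the coat protein of lipid droplets in cells other than fat cells, and its amount is known to follow the lipid stored. Its brighter probe (chromosome 4, 86302847 to 86302906, mm9, minus strand) read 167928 ± 16793 for sham and 17112 ± 1711 for 5/6Nx. The difference was -3.60 ± 0.20, a 12.2-fold lower value. Its other probe read 10886 and 905.0, a difference of -3.90 ± 0.20, a 14.9-fold lower value. The position given for that probe (86302469 to 86302475) spans only 7 bases for a probe of 60, so its full placement is not known here. Neither array's reading was saturated, and 99 measured genes had a lower difference than Plin2. The Plin2 promoter window (chr4:86670010-86670309, minus strand, GRCm38.p6) held 2 DR1 matches, and is printed with them in capitals because PPARs act through this repeat:

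Plin2 promoter: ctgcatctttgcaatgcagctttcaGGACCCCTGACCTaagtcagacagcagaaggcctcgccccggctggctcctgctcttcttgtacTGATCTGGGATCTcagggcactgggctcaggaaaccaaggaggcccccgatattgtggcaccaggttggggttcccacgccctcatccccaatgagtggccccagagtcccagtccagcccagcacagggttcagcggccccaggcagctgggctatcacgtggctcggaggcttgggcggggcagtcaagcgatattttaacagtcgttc

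The first match, at positions -225 to -213, had 2 mismatches, a level reached by a DR1 in 3.86% of all windows, and it contains the exact AGGTCA on the strand opposite to the gene. The second, at positions -161 to -149, had 3 mismatches, a level reached in 24.6% of windows. Both are descriptions of letters and not measured sites. Among the other perilipins Plin3, which coats nascent droplets, read 5065 and 3104, a difference of -1.02, or -0.64 with spike-in scaling. Plin1, the coat of fat cell droplets, was dim, with 19.5 and 36.4, and Plin4 read 21.9 and 23.1.

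Fabp4 encodes the fatty acid binding protein of fat cells and macrophages, which carries fatty acids to PPAR gamma. Its brighter probe (chromosome 3, 10204452 to 10204511, mm9, minus strand) read 76.4 ± 8.2 for sham and 239.7 ± 24.2 for 5/6Nx. The difference was 1.34 ± 0.21, a 2.53-fold higher value, and it was 0.86 with normexp. The other probe (10208442 to 10208501) read 8.46, not well above background, for sham and 41.7 for 5/6Nx, which makes it at least 2.64-fold higher there. That bound sets the 5/6Nx value against the dimmest probe that was well above background on the sham array, and with normexp this probe's difference was 0.27. Fat cells and endothelial cells also carry Fabp4. Of the adipocyte markers Adipoq and Cidec were not well above background on either array, and the 4 measured ones had 0 higher and 0 lower, with summed intensities of 663.5 and 871.7. Both measured endothelial markers, Pecam1 and Kdr, were higher, Kdr by 4.45, with sums of 188.6 and 3750. The endothelial genes Cdh5 and Tie1 were detected in sham only, and Emcn and Tek on neither array. Red pulp macrophage markers were higher in 3 of 5 measured genes and lower in 1, with sums of 42523 and 96136, led by Spic at 5.53, and Vcam1 was detected after 5/6Nx only. The part of these cells in the Fabp4 difference was not tested.

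**Figure D2:**
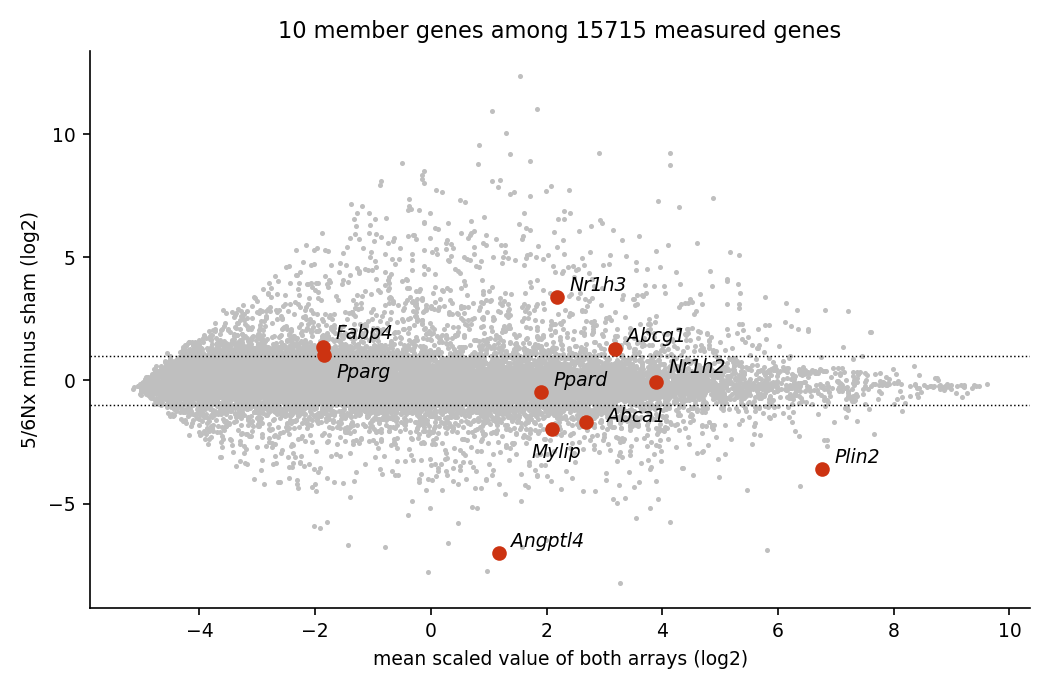
Difference between the arrays (5/6Nx minus sham, log2) against the mean scaled value of both arrays (log2) for 15715 measured genes (grey) and the 10 members (red), with dotted lines at 2-fold. Angptl4 at -7.02 and Plin2 at -3.60 lie at the lower edge of the cloud, Nr1h3 at 3.38 lies above its dense part, and Ppard and Nr1h2 lie inside the 2-fold band.

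The other genes of these pathways were taken from lists that leave out the members. Of 98 such genes 75 were measured on both arrays, with 9 higher and 25 lower by 2-fold or more and a median of -0.36, against -0.12 for all measured genes. Beside these counts and those of each list below, 12.3% of all measured genes were higher and 10.9% lower by 2-fold or more. A further 5 pathway genes were detected after 5/6Nx only and 6 in sham only. With scaling to the spike-in controls every difference is 0.38 larger, which turns the sign of several list medians close to 0.

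Among partners and coregulators, 1 of 11 measured genes was higher and 2 were lower. Their median was -0.03, and it was 0.11, of the other sign, with the gene detected on 1 array added at its bound. Ppargc1b, a coactivator of fat burning and mitochondrial genes, read 246.6 and 969.3, a difference of 1.67. Rxra, the retinoid X receptor that pairs with both PPAR and LXR, read 18515 and 9312, a difference of -1.30, and its partner form Rxrb differed by -0.53. Ncor1, a corepressor, differed by -0.03 with 8 probes from -0.49 to 0.63. Ppargc1a, the relative of Ppargc1b, was detected after 5/6Nx only, at 20.6. Ppara, the third PPAR, read 161.6 and 397.1, a difference of 0.99, just inside 2-fold.

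Among genes that make or remove ligands, 1 of 7 measured genes was higher and 3 were lower. Their median was -0.36, and it was 0.04, of the other sign, with the genes detected on 1 array added at their bounds. Another pair was detected after 5/6Nx only, Cyp11a1 at 223.3, at least 14.1-fold higher, and Cyp7b1 at 28.9. Ch25h, which makes 25-hydroxycholesterol and is known as an interferon-induced gene, read 22.1 for sham and 8808 for 5/6Nx, a difference of 8.33, or 6.41 with normexp because the sham value lay near background. Cyp27a1, which makes 27-hydroxycholesterol, was dim, with 59.6 and 16.5, a difference of -2.17 that was -0.88 with normexp. Alox5, the 5-lipoxygenase, read 1903 and 291.5, a difference of -3.02. Fabp5, which carries fatty acids to PPAR delta, read 16788 and 21392, a difference of 0.04.

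Among the other LXR targets, 2 of 15 measured genes were higher and 7 were lower, and their median was -0.64 with and without such bounds. Apoe, a cholesterol acceptor that macrophages secrete, read 268651 for sham and 2827 for 5/6Nx, a difference of -6.88. Its neighbours in the same gene cluster, Apoc2 and Apoc1, read 57115 and 1311, and 1929 and 80.0, with differences of -5.75 and -4.90. Apoc4 of that cluster was detected in sham only, at 60.3, and was at least 5.45-fold lower after 5/6Nx. Abcg5, a sterol exporter of gut and liver, was detected after 5/6Nx only, at 20.5. Smpdl3a differed by -1.83, Lpcat3, which builds polyunsaturated phospholipids, by -1.77, and Arl4c by -1.51. In the other direction were Ptpn6, the phosphatase SHP-1, at 1.59, and Lpl at 1.24. Srebf1, the regulator of fatty acid synthesis that LXR is known to induce, read 5474 and 4360, a difference of -0.64. The 2 higher of 15 are near the share of all measured genes that were higher, 12.3%. The 7 lower of 15 are above the share that were lower, 10.9%.

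Among the other PPAR targets, 3 of 21 measured genes were higher and 9 were lower. Their median was -0.34, or -0.78 with the genes detected on 1 array added at their bounds. Cd36, the scavenger receptor that takes up fatty acids and oxidised lipoproteins, read 23207 and 905.1, a difference of -4.99. Hilpda, which blocks lipid droplet breakdown, read 15062 and 831.2, a difference of -4.49. Ucp2, a mitochondrial carrier, differed by -2.79, and Cpt1a, which lets fatty acids into mitochondria, by -1.93. Acot1, a thioesterase that frees fatty acids, was detected in sham only, at 2220, and was at least 201-fold lower after 5/6Nx. Pdk4, a well known PPAR target, was also detected in sham only, at 31.8. Among the higher genes were Gk, the glycerol kinase, at 2.96 with 3 probes from 0.05 to 2.96, and Fabp3 at 1.83.

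Around MYLIP and ANGPTL4, 2 of 8 measured genes were higher, Vldlr and Lpl, and 1 was lower, with a median of -0.05.

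Relatives of the members were described in the same way. Of the 3 measured perilipins besides Plin2, 1 was lower and none higher, with a median of -0.23. Of the 5 measured fatty acid binding proteins besides Fabp4, Fabp3 was higher and Fabp7 lower, at -2.96, with a median of 0.05. Of the 11 measured ABCA and ABCG transporters besides Abca1 and Abcg1, Abcg3 was higher at 1.24, or 0.71 with normexp, and Abca9 lower at -4.72, with a median of -0.42, or -0.11 with the genes detected on 1 array added at their bounds. Abca7, the closest relative of Abca1, read 8053 and 9228, a difference of -0.11. Abca4 and Abcg5 were detected after 5/6Nx only. Of the angiopoietin-like genes besides Angptl4, Angptl6 differed by -0.54, and Angptl1, Angptl2 and Angptl7 were detected in sham only, with Angptl2 at 149.5 and at least 13.5-fold lower after 5/6Nx.

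**Figure D3:**
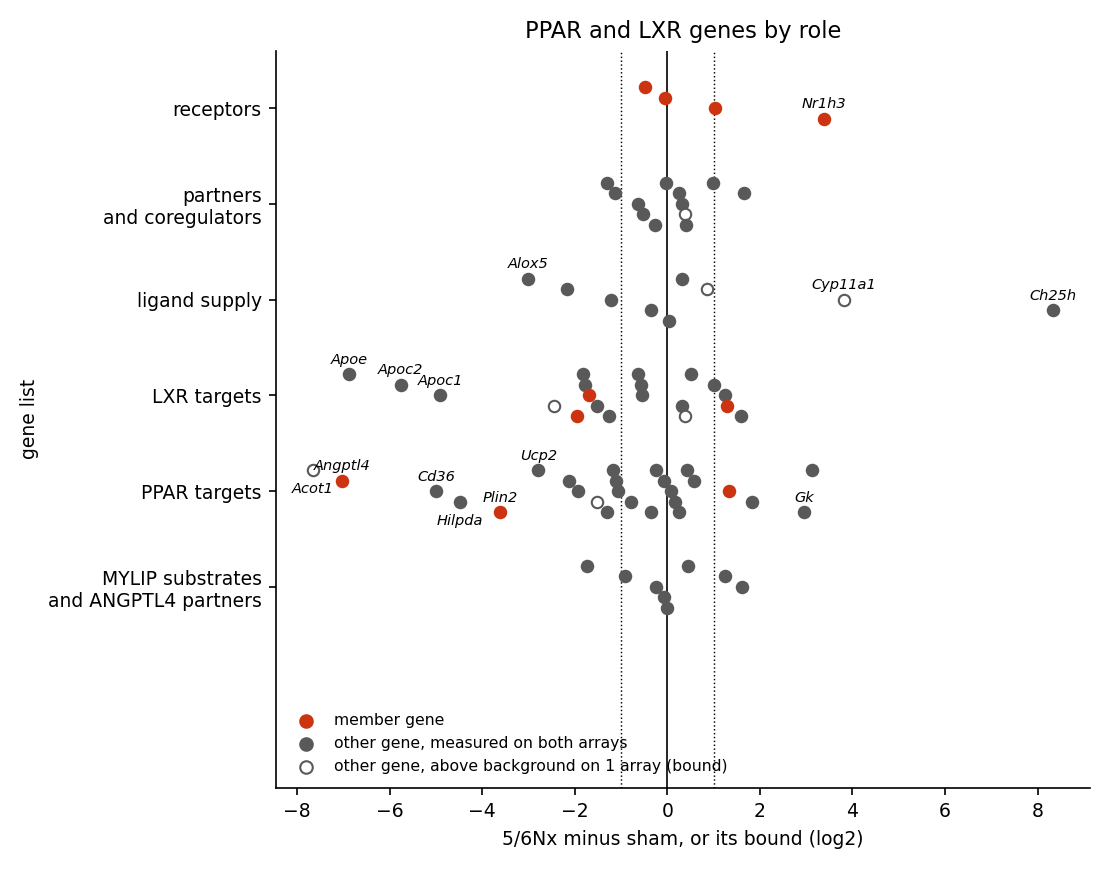
Difference between the arrays (5/6Nx minus sham, log2) for the members (red) and the other genes of each list (grey, filled where measured on both arrays, open where above background on 1 array and drawn at the bound), with dotted lines at 2-fold; some of the genes beyond 2.5 are named. Apoe, Apoc2, Apoc1, Cd36, Hilpda, Acot1, Angptl4, Plin2, Alox5 and Ucp2 lie far to the left, and Nr1h3, Gk, Cyp11a1 and Ch25h to the right.

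The remaining marker lists stood as follows. Of 3 measured B cell markers 1 was higher, with summed intensities of 485.1 and 1404, and 2 more were detected after 5/6Nx only. Of 6 neutrophil markers 2 were higher, Ly6g at 4.53 and Camp at 2.18, and 1 was lower, Mmp8 at -3.97. Their sums of 120731 and 163514 were mostly Csf3r, which read 106720 and 157350, a difference of 0.25. Both measured dendritic cell markers lay within 2-fold, with sums of 381.7 and 753.1, and of the others 2 were detected after 5/6Nx only and 1 in sham only. Among the monocyte markers Csf1r, the receptor that macrophages depend on, read 70611 and 72856, a difference of -0.26. Itgam, the gene of the sort antigen CD11b, differed by -0.35 on its brightest probe, and its 2 measured probes ran from -1.18 to -0.35. Cd68 differed by -1.42, Fcgr1 by 2.63, and the near-identical Ly6c1 and Ly6c2 both by 1.98. Their part in the differences of the 10 genes was not tested.

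The 8 members at least 2-fold apart kept their sign in each of the 10 alternatives of scaling, background correction, filtering, probe choice and data source. Nr1h3, Abca1, Abcg1, Mylip, Plin2 and Angptl4 also stayed at least 2-fold apart in all 10. Fabp4 did so in 9 and Pparg in 6, and Nr1h2 changed sign in 3. Several alternatives could not move the members. Keeping outlier-flagged spots or relaxing the filter on dim probes left every member value unchanged. Leaving flagged spots out of the percentile changed almost nothing, and averaging acts only on genes with several measured probes. Pparg was 1.41 with spike-in scaling. It fell under 2-fold with normexp (0.63), median scaling (0.88), quantile scaling and the authors' deposited value table (both 0.92).

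**Figure D4:**
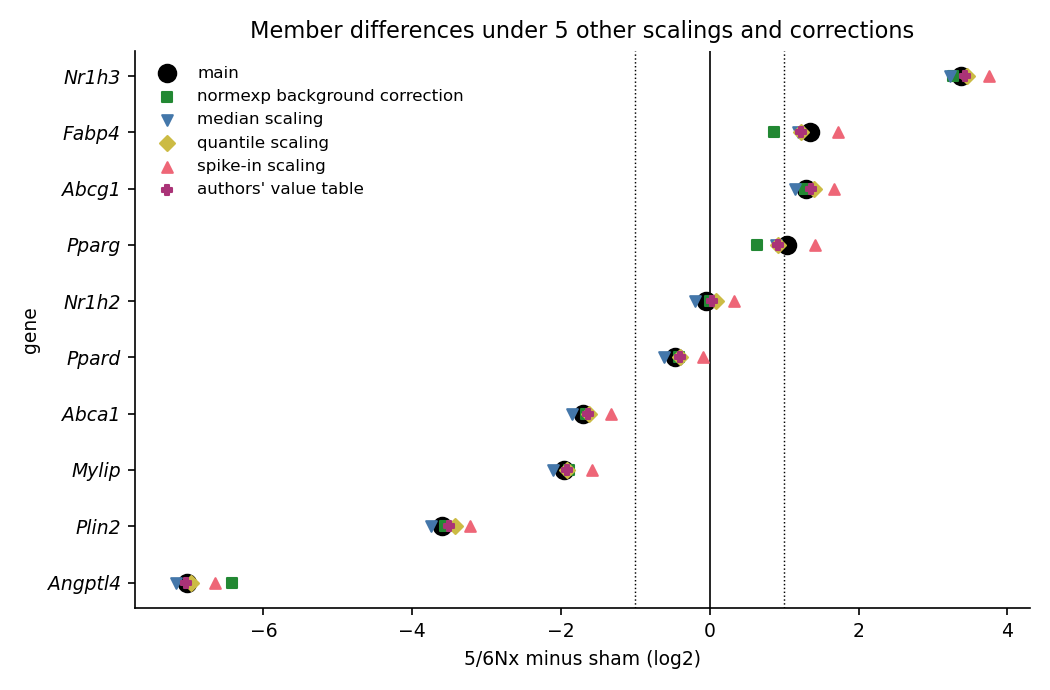
Difference between the arrays (5/6Nx minus sham, log2) of each member in the main setting (black) and under 5 of the alternatives, with dotted lines at 2-fold. Pparg and Fabp4 cross the 2-fold line, the spike-in values lie to the right of the main ones for all 10 genes, and the values of the other 6 genes that were apart stay beyond 2-fold.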

How the data were processed

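The deposited scanner files hold intensity values of 1-colour (Cy3) Agilent arrays. Per the file headers, the processed intensity was detrended within each array, spatially and multiplicatively, with surrogate values for low spots and no scaling between arrays. The deposited value table, used as an alternative, holds linear intensity, and how it was scaled between arrays is not stated. Feature Extraction is given as version 9.5.1.1 in the submitters' processing notes and 10.7.1.1 in the file headers. Probe positions are on mm9, per the file headers; whether a probe lies in coding exon or UTR was not analysed here.

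Members were taken by gene name. Each value is the log2 processed intensity after division by the 75th percentile of the array's non-control spots (442.1 for sham, 547.5 for 5/6Nx). Outlier spots of either array were dropped. A probe counted as measured if over 50% of its spots were well above background on each array, and the brightest measured probe stood for its gene. Other genes were named through a RefSeq table, by accession (32994 probes), symbol (10224) or synonym (520), and 12867 probes stayed unnamed. A gene detected on 1 array was given as a bound against the higher of the dim probe's signal and the lowest signal well above background, 12.8 for sham and 13.7 for 5/6Nx. With 1 array per group there is no test, and a fold of at least 2 marks genes as apart. The spot-to-spot SD of a log2 difference was 0.0631 over 288 probes with at least 8 spots. Normexp (offset 50) and quantile scaling used limma 3.58.1 in R 4.3.3, and the rest Python 3.11.15. Tested on simulated data of 16150 genes, the steps recovered 200 of 200 changed genes and called 0 others. The simulated second array was the sham array itself with small spot noise, and shifts well past 2-fold were put into bright genes only. That outcome checks that the steps run correctly and says nothing of dim genes, animals, sorting or labelling.

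The members and lists were chosen with earlier results of these data known. The genes named are every member, the 2 to 4 measured genes of each list with the largest difference, genes detected on 1 array and defining markers. The other genes named beside them were chosen after their values were seen. Some genes of the lists are counted but not reported here by name.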

Additional observations from a re-analysis of the deposited data

How the results depend on the processing

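The 4 lower members stayed at least 2-fold lower in all 10 alternatives, several of which could not move the members. The number of members at least 2-fold higher was 2 with normexp in place of 4, since the dim genes Pparg and Fabp4 then differed by 0.63 and 0.86. It was 3 with median scaling, quantile scaling and the authors' deposited value table, where Pparg lay under 2-fold, and 4 in the others. The median of the members was -0.41 with median scaling, -0.16 with quantile scaling, -0.18 with the authors' deposited value table and 0.11 with spike-in scaling, in place of -0.26. The counts of all measured genes were 3118 higher and 922 lower with spike-in scaling, 1164 and 1237 with normexp, 3685 and 2697 without a filter on dim probes and 3017 and 2037 with probes above background on at least 1 array, in place of 1926 and 1719. With spike-in scaling the list medians of ligand supply, PPAR targets and partners were 0.02, 0.03 and 0.35. No paired analysis was possible because each group has 1 array. Signal close to background limits Pparg, Fabp4 and the 5/6Nx value of Angptl4.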
